A study of Homo sapiens with 6 samples.

Results

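HIV reverse transcriptase (HIV RT) and SuperScript III were compared as readers of the same kind of template, mock-treated ribosomal RNA of HEK293T/17 cells, both with magnesium. The comparison uses 2 of the 6 libraries of the series, chosen by their labels, and all positions of 18S and 28S rRNA that at least 100 reads crossed in both. This kept 6912 of 6939 positions, 1867 in 18S and 5045 in 28S. HEK293T/17 is an established human embryonic kidney line, and RNA longer than 200 nt was taken from confluent plates, fragmented, repaired at its ends and ligated to a 3′ adapter before it was copied. Both libraries went without CMC, the carbodiimide that the series uses to mark pseudouridine. A second pair of libraries, the same enzymes with magnesium on CMC-treated RNA, shares no library with the first and is given beside it. SuperScript III with manganese on mock-treated RNA is given as values only. Each combination is 1 library, so no difference here has a replicate check and none was tested.

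Reverse transcriptases copy RNA without proofreading, and they differ in how often they insert a wrong base and how easily they fall off the template. HIV RT, the polymerase that copies the genome of the human immunodeficiency virus, is known as an error-prone enzyme. SuperScript III is an engineered form of the murine leukaemia virus enzyme. Human rRNA carries pseudouridines, 2′-O-methylated riboses and a few methylated or acylated bases. Where such a change blocks the base-pairing edge an enzyme tends to misread or to stop, while pseudouridine and 2′-O-methylation leave that edge free.

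The sequences below are windows of the deposited rRNA sequences, 5′ to 3′, with the position described in capitals and at most 10 nt on either side. They are numbered from 1 at the 5′ end of each rRNA, which has many near-identical gene copies, so that no genome build applies. The first 6 hold listed base modifications at which an enzyme misread or stopped, followed by 5 at which HIV RT stopped far more, 3 at which SuperScript III did, and 3 at which SuperScript III gave more mismatches.
18S 1248, 1-methyl-3-acp-pseudouridine: uuaauuugacUcaacacggga
18S 1639, 7-methylguanosine: caugaacgagGaauucccagu
18S 1850, N6,N6-dimethyladenosine: uccguaggugAaccugcggaa
28S 1322, 1-methyladenosine: acccgucuugAaacacggacc
28S 4220, N6-methyladenosine: ucaaacgguaAcgcagguguc
28S 4530, 3-methyluridine: gugagcugggUuuagaccguc
28S 15: accucagaucAgacguggcga
18S 1040: aacgaaagucGgagguucgaa
28S 1073: ugggggggccGggccaccccu
28S 2427: aacagcaguuGaacauggguc
28S 4527: aacgugagcuGgguuuagacc
28S 4228, 2′-O-methylguanosine: uaacgcagguGuccuaaggcg
28S 625: gggcgggcggGgccgggggug
28S 2206: ccccccccccCacgccuccuc
28S 4150: cgcgccggccGggcgcgaccc
28S 3050: cgccccgcgcCcucucucucu
28S 4806: cgccccccccCuccacgcgcc

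The HIV RT library held 47002169 ended reads and the SuperScript III library 23209210. The median position of 18S was crossed by 282421 and 185814 reads, and that of 28S by 207084 and 119172. The mismatch share is the percent of crossing reads that carry another base than the reference, and its 95% Wilson interval reached a median of 0.0351 points to either side with HIV RT and 0.0168 with SuperScript III. Stop shares divide the stops at a position by the sum of its stops and crossing reads, in percent, and their intervals reached a median of 0.0642 and 0.0758 points to either side. These intervals, and those given below for differences, cover counting error only, since no molecular identifiers are described. All differences are HIV RT minus SuperScript III in percentage points. Because the RNA was fragmented before copying, reads that ran off a fragment end also count as stops, and they cannot be told apart from stops of the enzyme. Crossing counts leave out the outermost base of a read. Reads that stopped at the base just 5′ of a position are therefore missing there, which raises its stop share. Errors of later library steps and of sequencing also count as mismatches, and cannot be told apart from misreadings by the enzyme.

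Mismatches were several times as frequent with HIV RT as with SuperScript III at each of the 4 bases. Over all positions the median mismatch share was 0.653% with HIV RT and 0.0861% with SuperScript III, a ratio of 7.59. At A the medians were 0.769% and 0.0887%, and at C they were 0.673% and 0.0990%. At G they were 0.609% and 0.0824%, and at U 0.597% and 0.0590%. A was thus the base with the highest median in the HIV RT library and C in the SuperScript III library, while the ratio was largest at U, 10.1, and smallest at C, 6.80. The share was higher with HIV RT at 6619 positions, 95.8% of those compared. The lower and upper quartiles of the differences over positions were 0.280 and 0.880 points.

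A difference of at least 1 point with HIV RT higher was found at 1373 positions, 19.9% of the 6912. By base these were 331 of 1213 A (27.3%), 491 of 2181 C (22.5%), 385 of 2366 G (16.3%) and 166 of 1152 U (14.4%). Only 55 positions, 0.796%, were lower with HIV RT by as much, 51 of them in 28S. In the CMC-treated pair the same bar was passed upward at 1863 of 6935 positions (26.9%) and downward at 48 (0.692%). Positions past it upward in both pairs numbered 754, which is 54.9% of the mock list and 40.6% of the CMC list. CMC adds its group mainly to U and G. At A and C alone, 822 of 3394 positions passed the bar upward in the mock pair and 444 in the CMC pair. The 337 shared were 41.0% of the mock list and 75.9% of the CMC list. Downward, 31 positions were shared, 56.4% of the mock list and 67.4% of the CMC list. The share was higher with HIV RT at 95.7% of positions in the CMC pair.

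All 12 kinds of misreading were more frequent with HIV RT, but not by the same factor. Values are medians over positions, as reads per 10000 crossing reads of the reference base. A read as U was the most frequent error of HIV RT at 40.5, against 2.37 with SuperScript III, and had the largest ratio, 17.1. U read as G had 14.4 against 0.984, and U read as A had 17.5 against 1.25, ratios of 14.6 and 14.0. C read as U was the most frequent error of SuperScript III at 5.35, and the next most frequent of HIV RT at 36.3, a ratio of 6.79. The smallest ratios were those of A read as C, 17.6 against 3.20, of G read as A, 17.3 against 2.95, and of C read as A, 16.1 against 2.73. The remaining 5 kinds had ratios from 6.37 for A read as G to 12.2 for C read as G. These ratios compare all mismatches of each library, whichever step gave rise to them, and the share due to the enzyme was not tested.

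By these medians the most frequent kind exceeded the least frequent 3.36-fold with HIV RT and 5.44-fold with SuperScript III. The order was turned in the CMC pair, 8.38-fold and 6.67-fold. Over unlisted positions with a mismatch share under 10%, U was the base read in 46.1% of mismatches with HIV RT and 43.8% with SuperScript III. G was the base read least, 14.0% and 13.5%. Transitions, the exchanges between A and G or between C and U, made up 37.0% and 41.9% of mismatches. At A, the misreading as U made up 54.8% of mismatches with HIV RT and 42.7% with SuperScript III. With CMC, C was the base read in 33.2% and 23.2% of mismatches, and U in 34.0% and 37.8%. In the library of SuperScript III with manganese U was the base read in 72.1% of mismatches, with medians of 30.0 for A read as U and 30.6 for C read as U.

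**Figure D1:**
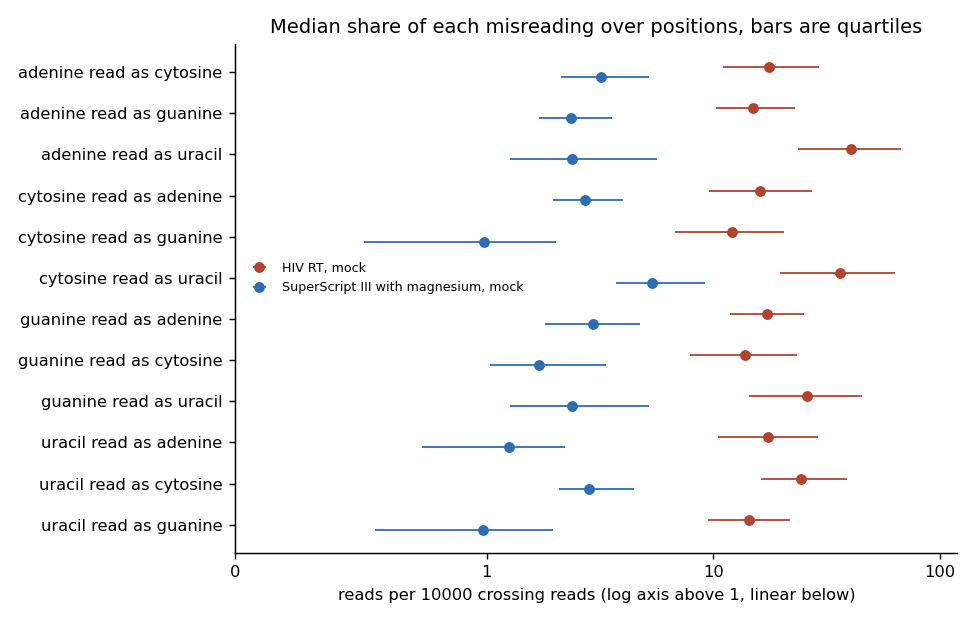
Median share of each of the 12 kinds of misreading over positions of 18S and 28S rRNA in the HIV RT (red) and SuperScript III magnesium (blue) mock libraries, in reads per 10000 crossing reads, with bars from the lower to the upper quartile over positions. HIV RT medians lie between 12.1 and 40.5 and SuperScript III medians between 0.984 and 5.35.

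Mismatches with HIV RT were more frequent where many reads ended. The read-end share of a position is the percent of its crossing reads whose outermost counted base it is, computed from the stops 2 nt further 5′. Over unlisted positions with a mismatch share under 10%, the lowest of 10 equal groups by read-end share had a median mismatch share of 0.279% with HIV RT, and the highest had 1.30%, a ratio of 4.67. SuperScript III went from 0.0612% to 0.146%, a ratio of 2.39. The CMC libraries went from 0.344% to 1.27% with HIV RT and from 0.107% to 0.223% with SuperScript III, and SuperScript III with manganese went from 0.151% to 1.81%. Across positions of 1 library, which share reads and are not replicates, Spearman's rho was 0.543 with HIV RT and 0.301 with SuperScript III.

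The enzymes also differed where few reads ended. At the 738 such positions with a read-end share under 1% in both libraries, the medians were 0.304% and 0.0751%, a ratio of 4.05 and a median difference of 0.203 points. Of these 738 positions, 7 (0.949%) were higher with HIV RT by at least 1 point, beside 19.9% of all positions. C read as U in the HIV RT library had a median of 15.8 per 10000 in the lowest of 5 equal groups by read-end share and 92.1 in the highest. SuperScript III had 3.83 and 9.05. The HIV RT tables carry a name that refers to edges, and whether reads were trimmed or aligned differently there is not given in the sources used here. Its part in these differences was not tested.

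**Figure D2:**
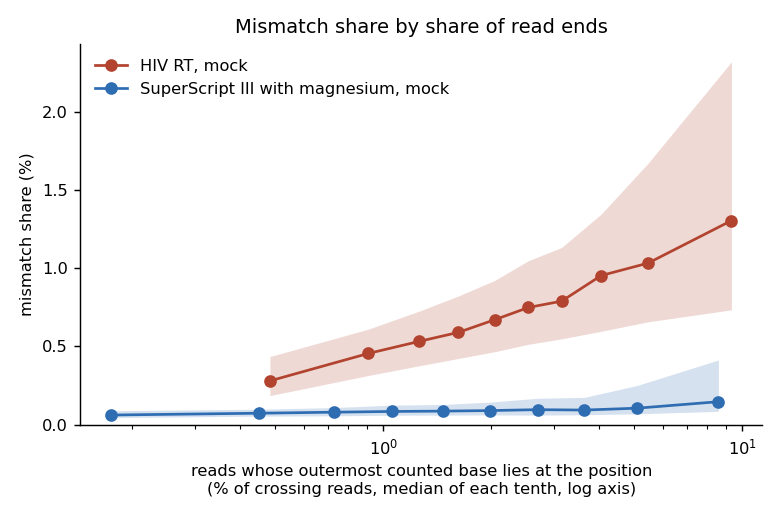
Median mismatch share (%) of positions in 10 equal groups ordered by the share of crossing reads that end there (%, log axis), for the HIV RT (red) and SuperScript III magnesium (blue) mock libraries, with bands from the lower to the upper quartile over positions. HIV RT goes from 0.279% to 1.30% and SuperScript III from 0.0612% to 0.146%.

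The 5′ ends of both rRNAs stood out with HIV RT. Among the first 10 nt of 28S, 9 positions were compared. Their median mismatch share was 7.72% with HIV RT and 0.0970% with SuperScript III. In 18S the 9 positions had 2.53% and 0.0983%. All 18 were higher with HIV RT by at least 1 point. From nt 11 to 50 the medians were 1.13% and 0.0730% in 28S and 0.785% and 0.0511% in 18S. Positions 2, 3 and 6 of 28S were among the 6 largest upward differences of the whole comparison. Position 3, a C, had 15.7% with HIV RT (12.1% U, 2.14% A, 1.44% G) and 1.48% with SuperScript III. Position 6, also a C, had 14.0% and 0.0901%, and position 2, a G, 13.4% and 0.0970%. In the CMC pair these 3 positions had 7.99% against 1.22%, 9.07% against 0.146% and 13.4% against 0.367%. Of the crossing reads, those ending at position 3 made up 34.2% with HIV RT and 12.9% with SuperScript III, and at position 6 they made up 34.3% and 10.4%.

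The 12 listed base modifications ranged from sites misread by most reads to sites read like unlisted bases. Of them, 6 had a mismatch share higher with HIV RT by at least 1 point and 0 lower, beside 19.9% and 0.796% of all positions. The medians over the 12 were 1.68% and 0.567%. For stops, 1 site was higher by at least 5 points (8.33%) and 3 were lower (25%), beside 6.63% and 4.04% of all positions.

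The N1-methyladenosine of 28S, position 1322, had the largest upward mismatch difference of all. Its methyl group sits on the base-pairing edge. HIV RT misread it in 53.1% of 119752 crossing reads and SuperScript III in 19.0% of 51884, a difference of 34.1 points (95% interval 33.6 to 34.5). The CMC pair had 53.2% and 14.3%, and SuperScript III with manganese had 34.1%. HIV RT read it as U in 40.7%, as C in 9.41% and as G in 3.01% of reads. SuperScript III read U in 12.9%, G in 4.70% and C in 1.40%, so that U led with both and C and G changed places. Most reads stopped here, 78.0% with HIV RT and 87.2% with SuperScript III, and 65.0% and 79.9% in the CMC pair. HIV RT thus had the lower stop share at this base and the higher mismatch share among crossing reads in both pairs. At G1321, the base 5′ of it, HIV RT had the higher stop share in both pairs, 24.6% against 8.57% with CMC. Reads that stopped at G1321, 36014 and 5328 in the mock pair, copied 1322 as their outermost base and are not in its crossing counts. This raises its stop shares, more so with HIV RT, and leaves those reads out of its mismatch shares. The base 3′ of 1322, A1323, had mismatch shares of 4.12% and 0.150%, and stop shares of 9.39% and 23.6%. Reads that stopped at 1322 copied A1323 as their outermost base and are not in its crossing counts. These were 153599 and 56485, beside 574580 and 409524 at A1324. The stop shares at A1323 are raised by this in both libraries, and are no measure of how the enzymes differ there.

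The hypermodified pseudouridine of 18S, position 1248, carries a methyl and an aminocarboxypropyl group. It was misread in 81.1% of 269258 reads with HIV RT and in 67.0% of 122071 with SuperScript III, a difference of 14.1 points (95% interval 13.8 to 14.4). Both read it mainly as C, in 72.5% and 63.5% of reads. HIV RT stopped there in 10.5% and SuperScript III in 26.8%, and at C1247, the base 5′ of it, in 6.06% and 28.4%. Reads that stopped at C1247, 17202 and 46359, are not in the crossing counts of 1248. This raises its stop shares, more so with SuperScript III. With CMC the order of the mismatch shares was turned, 54.5% with HIV RT and 59.6% with SuperScript III, while the stop shares kept theirs, 51.1% and 68.1%. SuperScript III with manganese had 59.7% mismatches and 1.85% stops.

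The 3-methyluridine of 28S, position 4530, is also blocked on its pairing edge. Mismatch shares were 40.5% with HIV RT and 32.4% with SuperScript III, a difference of 8.07 points (95% interval 7.81 to 8.34). A was the base read most, in 25.9% and 17.7% of reads. G followed, in 9.78% of HIV RT and 14.1% of SuperScript III reads, and C had 4.77% and 0.532%. The site was thus read as C several times as often by HIV RT, and as G more often by SuperScript III. Few reads stopped there, 1.10% and 2.03%. In the CMC pair the mismatch shares were 29.4% and 31.7%, the opposite order.

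The adjacent N6,N6-dimethyladenosines near the 3′ end of 18S, a late mark of small subunit assembly, gave the largest stop difference of all. These are positions 1850 and 1851. At 1850 SuperScript III stopped in 94.98% of reads and HIV RT in 46.0%, a difference of -49.0 points (95% interval -49.1 to -48.9). The CMC pair had 89.4% and 42.3%, and SuperScript III with manganese 41.9%. Mismatch shares among the reads that crossed were 1.98% with HIV RT and 2.34% with SuperScript III, beside medians of 0.769% and 0.0887% at A. At 1851 the mismatch shares were 0.907% and 0.748%, and stops there were 0.0508% and 0.332%. SuperScript III was thus further above its median for A than HIV RT at both sites. Stops at 1851 are hardly counted by either library, since the last stop of each 18S table lies 18 nt from the 3′ end, where 1851 lies. Nearby, U1848 had mismatch shares of 0.155% with HIV RT and 4.24% with SuperScript III, and G1847 had 4.92% and 0.309%. The CMC pair showed the same order, 0.142% and 4.13% at 1848, and 2.26% and 0.494% at 1847.

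The listed 7-methylguanosine and N4-acetylcytidines had mismatch shares of a few percent at most. The 7-methylguanosine of 18S, position 1639, had 2.95% with HIV RT and 0.520% with SuperScript III, with stop shares of 12.3% and 15.5%. The order of the stop shares was turned in the CMC pair, 13.7% and 8.64%. SuperScript III stopped more at G1638, the base 5′ of it, 24.0% against 5.94%. Those reads, 60084 and 16985, copied 1639 as their outermost base and are not in its crossing counts, which raises its stop shares. The N4-acetylcytidine at 1842 of 18S had 3.19% and 0.542%, while the one at 1337 had 1.11% and 0.592%. Both were read mainly as U, by HIV RT in 2.44% and 0.858% of reads and by SuperScript III in 0.445% and 0.534%. The unlisted bases just 5′ of 1842, at 1839 to 1841, had 2.59% to 4.38% with HIV RT as well. The HIV RT value at 1842 thus does not stand apart from these neighbours. With SuperScript III they had 0.105% to 0.128%, below its 0.542% at 1842, and G1843 had 0.345%. Beside 1337, SuperScript III had 0.101% at C1336 and 0.0777% at G1338.

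The remaining base modifications were read by both enzymes with mismatch shares below 1.5%. The 5-methylcytidines of 28S had 0.698% and 0.252% at 3782, and 1.38% and 0.171% at 4447. The N6-methyladenosines had 0.275% and 0.0331% at 1832 of 18S, and 0.688% and 0.0475% at 4220 of 28S. Stops set the last of these apart, with 9.78% in the HIV RT library and 1.55% in that of SuperScript III. In the CMC pair that stop difference was smaller, 2.48% against 0.791%.

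**Figure D3:**
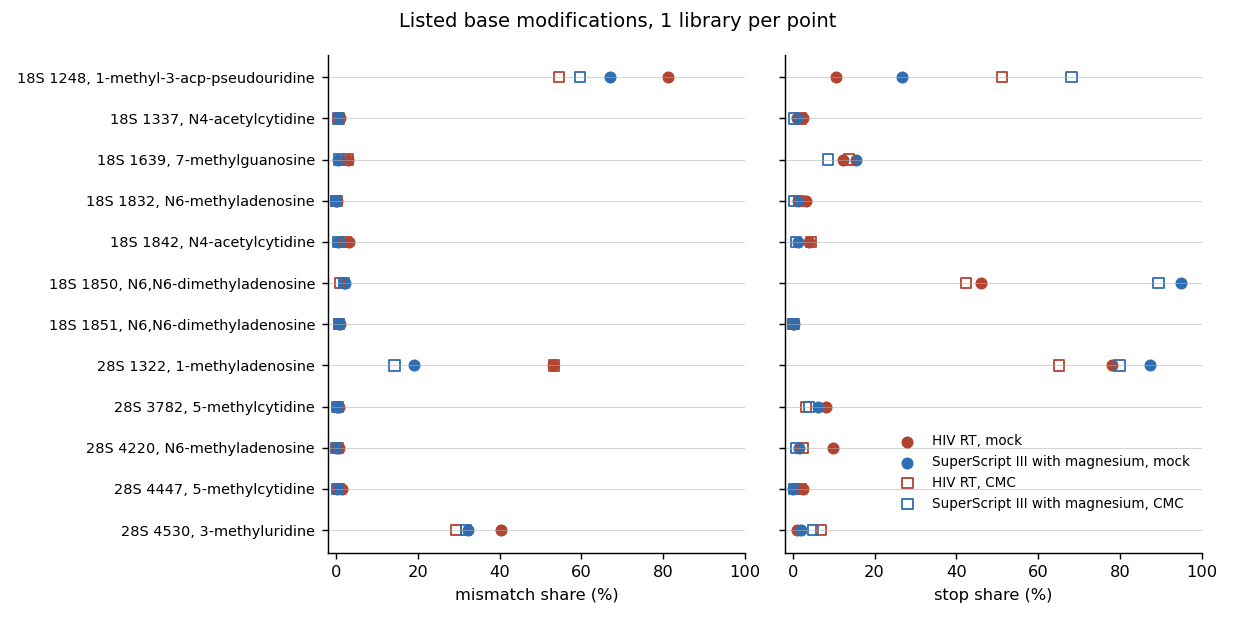
Mismatch share (left, %) and stop share (right, %) at the 12 listed base modifications, with 1 point per library: HIV RT in red, SuperScript III magnesium in blue, filled circles for mock and open squares for CMC. At 28S 1322 the HIV RT libraries lie near 53% mismatches and the SuperScript III libraries at 14.3% and 19.0%, and at 18S 1850 the stop shares of SuperScript III are 89.4% and 94.98% against 42.3% and 46.0%.

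At listed pseudouridines the median mismatch share with HIV RT was below that of unlisted U. Pseudouridine pairs as uridine does, and these libraries had no CMC. Over 99 sites the median mismatch share was 0.471% with HIV RT and 0.0561% with SuperScript III, beside 0.621% and 0.0594% at 1031 unlisted U. The median difference was 0.396 points, against 0.516 at unlisted U. It was at least 1 point at 3 sites (3.03%), upward, beside 14.4% of all U. These were 366 of 18S with 1.49% and 0.0907%, and 2839 and 4579 of 28S with 1.12% and 0.0586%, and 1.16% and 0.0865%. The next largest was 105 of 18S, 1.02% and 0.0327%.

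Stops at pseudouridines were about as frequent with both enzymes. The medians were 2.14% and 1.88%, with a median difference of -0.158 points, and HIV RT was higher at 45 of 99. Each direction held 3 differences of at least 5 points (3.03%), beside 1.39% upward and 3.91% downward of all U. Over all positions these shares were 6.63% and 4.04%. Upward, 119 of 18S had 6.80% and 0.297%, and 1081 of 18S had 7.93% and 1.70%. Downward, 3762 of 28S had 2.31% and 10.3%, and 1367 of 18S had 2.73% and 10.3%. SuperScript III with manganese had 10.3% and 9.27% at these latter sites.

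At ribose-methylated C and G both medians were below those of the same base unlisted, and at ribose-methylated A and U that of SuperScript III was above. Over 102 listed 2′-O-methylated positions the median was 0.463% with HIV RT and 0.0723% with SuperScript III, a median difference of 0.338 points. At the 22 methylated C the medians were 0.199% and 0.0638%, beside 0.678% and 0.0993% at unlisted C. At the 33 methylated A they were 0.714% and 0.254%, beside 0.771% and 0.0858% at unlisted A. Methylated G had 0.391% and 0.0540%, beside 0.610% and 0.0830% at unlisted G. Methylated U had 0.469% and 0.0661%, beside 0.621% and 0.0594% at unlisted U. The CMC pair had 0.288% and 0.0989% at methylated C, and 0.642% and 0.302% at methylated A. Of the 102, 2 (1.96%) were higher with HIV RT by at least 1 point, both at A, beside 19.9% of all positions and 27.3% of all A. These were 2815 of 28S, 2.33% against 0.115%, and 99 of 18S, 1.40% against 0.213%. At 2815 HIV RT read U in 2.15% of reads, and the CMC pair had 2.28% and 0.120%. Next in size were 1447 of 18S, a methylated G with 1.22% and 0.222%, and 4590 of 28S, a methylated A with 1.51% and 0.514%.

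Stop shares at ribose-methylated positions had medians of 2.01% with HIV RT and 1.36% with SuperScript III, beside 2.20% and 1.66% at unlisted positions. In each direction 1 site (0.980%) passed 5 points, beside 6.63% upward and 4.04% downward over all positions. The 2′-O-methylguanosine at 1522 of 28S had 10.3% with HIV RT and 0.559% with SuperScript III, and 6.24% and 0.835% in the CMC pair. That at 4228 of 28S had 1.51% and 17.2%, and 3.87% and 8.72% in the CMC pair, with 2.21% for manganese. Next in size were the 2′-O-methylguanosine at 1316 of 28S, 9.82% and 4.88%, and the 2′-O-methylcytidine at 2365, 3.16% and 7.10%. At 1 nt 3′ of listed ribose methylations the median stop share was 1.94% with HIV RT, below that of unlisted positions. With SuperScript III it was 2.17%, above that of unlisted positions.

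Stops were spread differently over the sequence by the 2 enzymes, although their overall frequency was similar. The median stop share was 2.20% with HIV RT and 1.66% with SuperScript III, with a median difference of 0.308 points. G had the largest difference, 2.76% against 1.55% with a median difference of 0.738 points. C had a median difference of 0.324 points, while A and U had -0.0564 and -0.0297. A stop share higher with HIV RT by at least 5 points was found at 458 positions (6.63%) and a lower one at 279 (4.04%). Upward, 278 of the 458 were G, which is 11.7% of all G. Another 125 were C (5.73% of all C), 39 A (3.22% of all A) and 16 U (1.39% of all U). Downward the share was similar at each base, with 98 C (4.49%), 88 G (3.72%), 48 A (3.96%) and 45 U (3.91%).

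**Figure D4:**
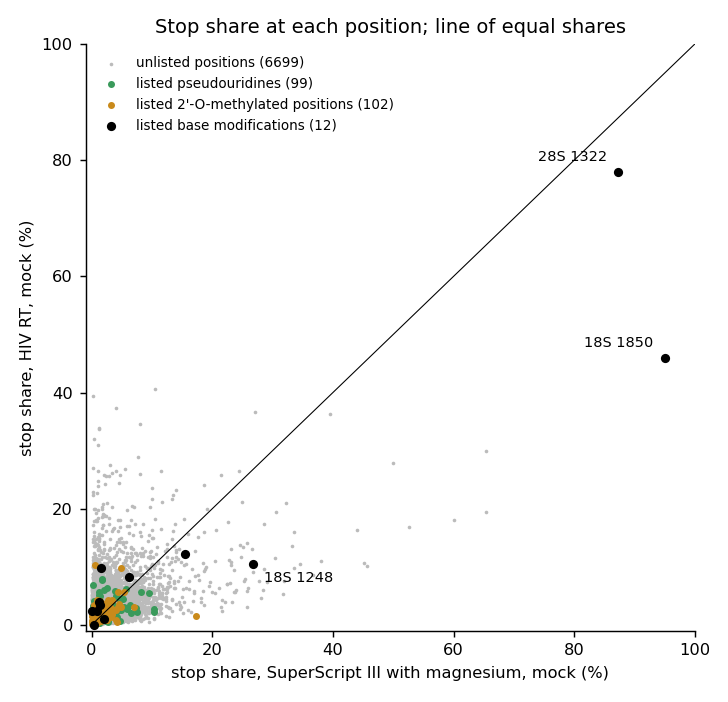
Stop share (%) of each of 6912 positions with SuperScript III magnesium (horizontal) and HIV RT (vertical), both mock, with listed pseudouridines in green, listed 2′-O-methylated positions in orange, listed base modifications in black and the line of equal shares. Most positions lie in the lower left corner, 458 lie at least 5 points above the line and 279 below it, and 18S 1850 lies at 94.98% and 46.0%.

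At the 6 positions with the largest upward stop differences, HIV RT stopped in 32.1% to 40.6% of reads and SuperScript III in 0.262% to 10.4%. Position 15 of 28S, an A, had 39.5% with HIV RT and 0.262% with SuperScript III, a difference of 39.2 points (95% interval 38.9 to 39.5). G2427 of 28S had 37.3% and 4.13%, and G1040 of 18S had 34.0% and 1.30%. G1073 of 28S had 33.7% and 1.28%, G4527 had 32.1% and 0.479%, and G4 had 40.6% and 10.4%. Of these 6 positions 5 are G. In the CMC pair G4 had 40.4% and 13.5%, and G1073 25.0% and 1.44%. The other 4 had lower stop shares there with HIV RT: position 15 had 7.64% and 0.347%, G2427 8.20% and 4.60%, G1040 5.54% and 0.807%, and G4527 3.34% and 1.43%. G4527 lies 3 nt 5′ of the 3-methyluridine at 4530, and G4528 had 10.1% and 1.34%.

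The largest downward stop differences, apart from 1850 of 18S, lay in thinly covered stretches of G or C in 28S. G625 had 19.4% with HIV RT and 65.4% with SuperScript III, and G626 had 18.0% and 60.1%. C2203 had 16.9% and 52.6%, C2206 had 30.0% and 65.4%, and C3334 had 10.1% and 45.6%. SuperScript III had between 246 and 743 crossing reads at these 5, and the 95% intervals of their differences all lay below -30 points. The CMC pair had the same order at each, with 48.5% and 77.3% at 625, 23.7% and 59.4% at 626, 12.8% and 33.2% at 2203, 28.1% and 58.0% at 2206, and 4.31% and 13.4% at 3334. Manganese left these stops of SuperScript III between 41.0% and 61.5%. Among the 279 positions lower with HIV RT, 33.3% had under 10000 crossing reads with SuperScript III, beside 15.8% of all positions.

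In the CMC pair 350 positions were higher with HIV RT by at least 5 points (5.05%) and 397 lower (5.72%). Those shared upward with the mock pair numbered 125, 27.3% of the mock list and 36.5% of the CMC list. Those shared downward numbered 140, 50.2% and 35.6%. The direction alone was shared by 95.2% of the mock list upward and 92.8% downward. Of all positions compared in the mock pair, 64.8% had a higher stop share with HIV RT in the CMC pair. Over the 458 positions the median stop share was 9.46% with HIV RT, 5.25% with HIV RT and CMC, and 1.38%, 1.39% and 1.91% with SuperScript III, its CMC library and its manganese library. Over the 279 it was 3.41% and 4.75% with HIV RT, and 11.2%, 10.5% and 9.93% with SuperScript III. The medians of the mock libraries follow from the choice of these positions, while those of the other 3 do not use it.

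The bases around the stops differed between the lists. A stop at a position leaves a cDNA that ends at the base 3′ of it, here called +1. Among the 458 positions with more stops with HIV RT, G made up 60.7% at the stop position, 47.8% at +1 and 50.1% at -3, beside 34.2% of all positions. A made up 38.6% at +2, beside 17.6%, and C 11.1% there, beside 31.5%. A G followed by G held 146 of the calls, 16.7% of its 874 positions, beside 11.7% of all G and 6.63% of all positions. Among the 279 positions with more stops with SuperScript III, the stop position was close to the whole, with 31.5% G and 35.1% C. There A made up 49.5% at +1, C 59.5% at +2, A 33.7% at +4 and C 49.1% at +5. G was low at +1, 19.0%, and at +2, 11.5%. Both lists thus had base preferences within 5 nt of the cDNA end. A was raised in both, most at +2 among the 458 and at +1 among the 279. C at +2 was low among the 458 and high among the 279. The cDNA end is also where the molecules were circularised, per the labels' protocols, and its part in these shares was not tested.

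**Figure D5:**
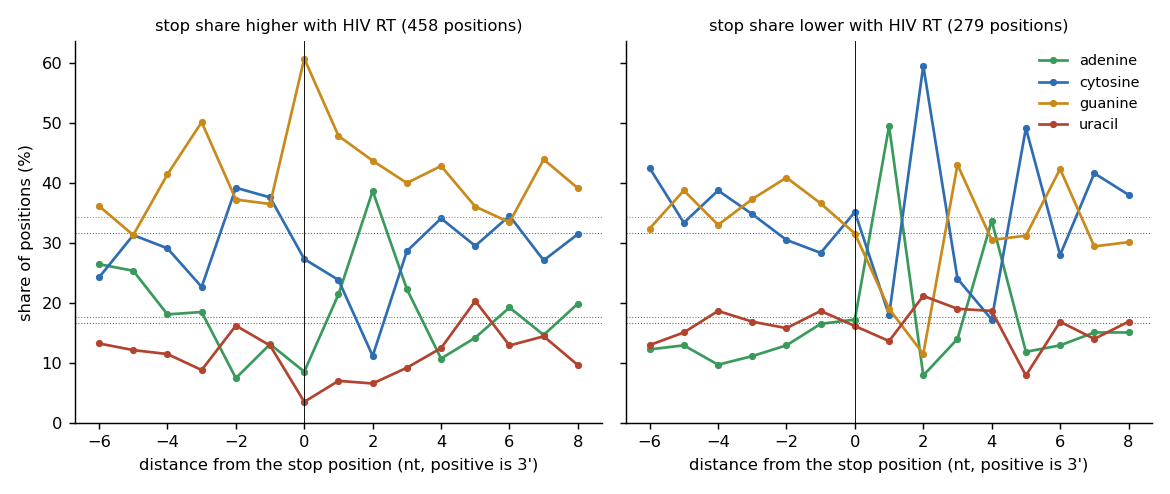
Share of positions (%) with each base at -6 to +8 nt around stops, positive toward 3′, for the 458 positions with stop share higher (left) and the 279 lower (right) by at least 5 points with HIV RT. Dotted lines give each base's share over all positions. On the left G reaches 60.7% at 0, and on the right A reaches 49.5% at +1 and C 59.5% at +2.

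A few unlisted positions carried another base than the reference in at least 10% of reads with both enzymes. Of these 12 positions, 3337, 4806 and 4807 of 28S are also among the largest downward differences and are given with them. At 60 of 18S the base read was A in place of the reference G in 97.1% of HIV RT and 99.9% of SuperScript III reads, and at 4910 of 28S in 98.8% and 99.9%. At 3041 of 28S, also a G, A was read in 82.6% and 85.2%. Another G, at 60 of 28S, was read as A in 17.1% and 23.0%. The A at 3506 was read as G in 27.5% and 33.8%, and the C at 883 as G in 24.6% and 21.0%. At 2195 and 3007, G was read as C in 9.99% and 17.3%, and in 9.71% and 14.0%, with at most 1562 crossing reads in either library. The A at 4810 had 10.3% and 12.8% mismatches. The SuperScript III manganese library had 99.9% A at 60 of 18S and 99.3% at 4910 of 28S. Reads of different rDNA copies were not separated.

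The 6 largest downward mismatch differences all lay in 28S, 5 of them in runs of C and U and 4 of those 5 at a C. C3050 had 9.61% with HIV RT and 38.6% with SuperScript III, nearly all read as U, a difference of -28.9 points (95% interval -30.0 to -27.9). C3068 had 3.86% and 15.9%, also read as U. C3337 was read as A in 23.2% and 49.1%. C4806 was read as U in 15.8% and 40.8%, and U4807 as C in 13.8% and 36.9%. In the CMC pair all 5 kept the order, with 6.40% and 16.5% at 3050, 3.21% and 7.63% at 3068, 12.2% and 19.8% at 3337, 24.2% and 42.4% at 4806 and 19.3% and 40.5% at 4807. The exception in sequence was G4150, with 0.756% and 13.0% mismatches, of which SuperScript III read 12.8% as U and HIV RT 0.545%. In the CMC pair it had 0.727% and 24.1%, and with manganese 6.97%. HIV RT was thus near its usual level for G there, and all 3 SuperScript III libraries were far above theirs.

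Among upward differences, U597 of 28S was the only unlisted position of the 6 outside the first 10 nt. It was read as G in 27.5% of 3034 HIV RT reads and 4.50% of 1088 SuperScript III reads, a difference in mismatch share of 23.3 points (95% interval 21.2 to 25.3). The CMC pair had mismatch shares of 39.3% and 5.77%, and SuperScript III with manganese 2.67%. Its stop shares were low, 0.687% and 0.820%.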

How the data were processed

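For each library the authors deposited a table of 18S and one of 28S rRNA. Per the file headers, these hold counts of reads crossing each position, in all and by base, the number of stops, and the rates of mismatch and stop, both as a fraction from 0 to 1. The submitters' processing notes name Trimmomatic 0.32 and Bowtie 1.0, with settings and origin of the reference sequences not given in the sources used here. Both deposited fractions were recomputed from the counts and agreed within 1e-09, reads with no base being left out of mismatches. The stop column is a number of reads, the other deposited unit used. In each library a stop is placed at the template base not copied, and crossing counts leave out the outermost base of a read.

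Positions crossed by 100 or more reads in each library were compared with pandas 2.3.3 and scipy 1.17.1. The bars were a difference of 1 point for mismatches and 5 points for stops. Intervals are 95% Wilson for shares and Newcombe for differences. The size rules were tested on simulated data that held counting error only, so that variation between libraries was not covered. With 1 library per group no test was made. Modified positions came from a list of 217 sites written from general knowledge, of which 4 had another base in the deposited sequence and 213 were used. Named positions are every listed base modification, the 6 largest differences in each direction for each measure, the 4 largest of each of the other lists, and unlisted positions with at least 10% mismatches in both libraries. Neighbouring positions of these were added after their values were seen. Members, lists and rules were chosen with earlier results of these data known. Alternatives are given in the closing section. T in the tables is printed as U.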

Additional observations from a re-analysis of the deposited data

Results flagged for a closer look

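At position 1248 of 18S rRNA, the hypermodified pseudouridine, the mismatch share was 14.1 points higher with HIV RT than with SuperScript III in the mock pair and differed by -5.16 points in the CMC pair. At position 4530 of 28S rRNA, the 3-methyluridine, the differences were 8.07 and -2.34 points. Both sites stand here because the sign of the difference between enzymes was opposite in the mock and the CMC libraries, with at least 1 point in each. The difference between the pairs was not tested, since each combination is 1 library. Stop shares were higher in the CMC than in the mock library of each enzyme. At 1248 they were 51.1% against 10.5% with HIV RT and 68.1% against 26.8% with SuperScript III, and at 4530 they were 6.91% against 1.10% and 4.99% against 2.03%.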

How the results depend on the processing

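No difference changed its sign under the 71 alternatives run for 13 results, some of which are counts of positions and have no sign. In 43 of them a difference moved within a counting interval, or a count by at most 1.5 times. That interval is for a single position of median share and depth, not for a median over positions. Pooling reads over positions gave mismatch differences of 0.729 points for A, 0.658 for C, 0.550 for G and 0.604 for U, 0.436 at listed pseudouridines and 0.377 at ribose-methylated positions, and a stop difference of 0.293 at the latter. Pooled without listed positions and positions of 10% or more, A had 0.720, C 0.667, G 0.596 and U 0.566. At positions with a read-end share under 1% the medians were 0.271 for A, 0.167 for C, 0.252 for G and 0.195 for U, with 8 positions higher and 6 lower of 751. These last 2 settings were chosen after seeing the data. With 18S alone C had 0.614, G 0.567, U 0.585 and pseudouridines 0.443, and with 28S alone U had 0.461. The stop difference at pseudouridines was -0.399 in 18S and -0.0443 in 28S. Bars of 2 points for mismatches and 10 for stops left 287 higher and 31 lower, and 124 and 83. The causes were not tested. No paired analysis was possible because the labels carry no replicate numbers and each combination is 1 library, so none could be left out either. Depth limits the stop shares in the G and C stretches of 28S, where the widest interval reached 5.38 points to either side.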

Other observations

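The gap between the enzymes varied with base composition. In 5 groups of positions by the share of G and C over 21 nt, from the lowest to the highest, the HIV RT library was 1.49, 1.70, 1.88, 2.06 and 2.57 times as deep as that of SuperScript III. The median mismatch difference was 0.663, 0.558, 0.525, 0.418 and 0.356 points in the same order. HIV RT had a median of 0.756% in the lowest and 0.597% in the highest group, while SuperScript III had 0.0738% and 0.141%. The median stop difference was -0.0175 points in the lowest and 0.576 in the highest group. The highest group was crossed by a median of 13229 and 4065 reads.

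A wrong base that would match a neighbouring template base was not favoured as a rule by either enzyme. Each of the 12 kinds of misreading was compared between positions with the read base next to them and positions without it. With HIV RT, 7 of the 12 were more frequent where the 5′ neighbour was the base read, and 5 where the 3′ neighbour was. With SuperScript III these numbers were 7 and 8. The ratios ranged from 0.754 to 1.5 for the 5′ neighbour and from 0.855 to 1.23 for the 3′ neighbour with HIV RT, and from 0.694 to 1.13 and from 0.723 to 1.65 with SuperScript III.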
